A study of Homo sapiens with 12 samples.

Results

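Transcript levels of 10 genes that encode subunits of condensin and cohesin were followed across the 6 short hairpin RNAs of the study. The genes were chosen by name, as subunits of the complexes, with earlier results of these data known. No threshold on their values was applied. The condensin genes were SMC2 and SMC4, which both condensins share, NCAPD2, NCAPG and NCAPH of condensin I, and NCAPD3 and NCAPG2 of condensin II. The cohesin genes were SMC1A, SMC3 and RAD21. All 10 were measured, among 18417 genes in all, and each had 1 probe set with a single gene symbol, so no choice between probe sets was needed. The cells were SK-mel147, an established human melanoma line, infected with lentiviral plasmids and hybridised to 12 arrays. H2AZ2, which encodes H2A.Z.2, was targeted by hairpins sh_37 and sh_38. H2AZ1, which encodes the other isoform of this histone variant, H2A.Z.1, was targeted by sh_83 and sh_84. The control cells expressed sh_scrambled or sh_luciferase, so they too carried a lentiviral hairpin. Each hairpin has 2 arrays and each target 4. The second sh_84 array is listed under another hairpin in its RNAi field, and its title was followed. No label states whether the replicates are separate infections, so the variation that the p-values rest on could be technical only.

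Condensin and cohesin are ring-shaped complexes built around a pair of SMC proteins, long coiled-coil ATPases that are joined at one end by a hinge and closed at the other by a kleisin subunit. Condensin compacts chromosomes for mitosis. Condensin II is nuclear throughout the cell cycle, whereas condensin I reaches the chromosomes after the nuclear envelope has broken down. Cohesin holds sister chromatids together from replication to anaphase and also forms chromatin loops in interphase.

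The targeted transcripts were examined first, since they check the labels. With sh_37, H2AZ2 had 46.1% of its mean in the controls (limma adjusted p = 1.13e-05), and with sh_38 it had 65.4% (limma adjusted p = 0.00204). H2AZ1 had 19.3% of its control mean with sh_83. In the arrays labelled sh_84 it had 92% (limma adjusted p = 0.859), which did not pass. Of the melanocyte lineage markers measured, SOX10, MITF and SOX5 lay above the dimmest 25% of genes in the controls, while PMEL, MLANA, TYR, TYRP1, S100B and KIT lay within it. The mean of 192 small nucleolar RNAs ranged from 6.68 to 6.93 over the arrays with H2AZ2 hairpins, from 6.83 to 7.16 with H2AZ1 hairpins and from 6.73 to 7.17 over the controls, and it was lowest in replicate 2 of sh_38. Keratinocyte, fibroblast, endothelial and leukocyte markers had no called gene among 5, 6, 5 and 4 measured when H2AZ2 hairpins were set against control. The mean level of the fibroblast markers ranged from 6.66 to 6.93 with H2AZ2 hairpins and from 6.40 to 6.57 in the controls. It was 6.64 and 6.63 with sh_83, also above every control. The marker LUM had means of 8.43 with scrambled and 9.20 with luciferase, on both sides of its 9.04 with sh_83. None of the 6 markers had a negative change with sh_83 against both control hairpins. In the fits by hairpin 2 of these 6 markers rose with sh_37 (5.72% of all genes were called higher) and 1 with sh_38 (1.28%), and 1 fell with sh_84 (0.342% of all genes were called lower). Of 9 melanocyte markers 2 rose and 1 fell with sh_37, where 5.72% of all genes were called higher and 7.19% lower. None was called with the other 3 hairpins. With sh_37 the largest rise among them was in KIT, a dim gene, at 6.33 against 5.27 in the controls. The largest fall was in SOX10, at 10.32 against 10.62. The part of the markers in the results below was not tested.

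The question for H2AZ2 was whether transcripts of the 2 condensins and of cohesin changed when this isoform was targeted. All 10 genes had lower means with the H2AZ2 hairpins than with the control hairpins, and 4 of them fell by the test across all genes (limma, Benjamini-Hochberg adjusted p under 0.05). As background, 2.44% of all 18417 genes were called lower. The list was drawn up with earlier results of these data known, so its counts are no independent test. The 4 were condensin genes: SMC4 of the shared core, NCAPG and NCAPH of condensin I and NCAPD3 of condensin II. Over the 7 condensin genes the median log2 change was -0.43, over the 3 cohesin genes -0.33, and over all genes 0.03. In 8 of the 10 genes every array with an H2AZ2 hairpin lay below every control array, which was so for 7.46% of all genes. In bulk RNA of this kind, fewer cells of a kind that transcribes a gene and less RNA per cell cannot be told apart.

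Among the condensin I genes, NCAPG, one of the HEAT-repeat subunits that contact DNA, showed the largest difference (probe set 8094278). Its log2 level was 9.72 and 9.87 with sh_37 and 9.94 and 9.87 with sh_38, against 10.48 and 10.52 with scrambled and 10.35 and 10.55 with luciferase. The 4 knockdown arrays lay close together and well below all 4 controls. The log2 change was -0.63 (SE 0.10, limma adjusted p = 0.00592), which is 64.8% of the control level, and 0.918% of all genes had a change lower still. NCAPH, the kleisin that closes the condensin I ring (probe set 8043602), stood at 10.00 and 10.06 with sh_37 and at 10.22 and 10.10 with sh_38, against 10.64 and 10.54 with scrambled and 10.41 and 10.52 with luciferase. Its groups did not overlap either, and the change was -0.43 (SE 0.08, limma adjusted p = 0.0151). NCAPD2, the other HEAT-repeat subunit of condensin I (probe set 7953351), was split between the hairpins. Its level was 10.96 and 10.93 with sh_37 and 11.34 and 11.27 with sh_38, against 11.38 and 11.40 with scrambled and 11.26 and 11.32 with luciferase. Both sh_37 arrays were below every control, while the sh_38 arrays lay among the controls. Over both hairpins its change of -0.21 did not pass (SE 0.10, limma adjusted p = 0.324).

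The 2 listed condensin II genes had the lowest median of the groups, -0.54. NCAPH2 of condensin II is outside the list and stood at -0.09, so this ranking holds for the listed genes only. NCAPD3, a HEAT-repeat subunit (probe set 7952830), stood at 9.04 and 8.94 with sh_37 and at 9.26 and 9.07 with sh_38, against 9.69 and 9.55 with scrambled and 9.54 and 9.67 with luciferase. It fell in the test, by 0.53 on the log2 scale (SE 0.10, limma adjusted p = 0.0129), to 69.1% of the control level. NCAPG2, the condensin II counterpart of NCAPG (probe set 8144153), stood at 8.16 and 8.18 with sh_37 and at 8.53 and 8.24 with sh_38, against 8.85 and 8.78 with scrambled and 8.55 and 9.11 with luciferase. Its change of -0.55 was of the size seen for NCAPD3 but did not pass (SE 0.15, limma adjusted p = 0.0616). The luciferase arrays of NCAPG2 lay further apart than any other pair of replicates of this gene and its lowest control was barely above its highest knockdown array.

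The shared ATPase core gave smaller differences. SMC4 (probe set 8083709) stood at 10.74 and 10.78 with sh_37 and at 10.89 and 10.67 with sh_38, against 11.29 and 11.08 with scrambled and 11.07 and 11.26 with luciferase. No knockdown array reached the controls, and the change was -0.41 (SE 0.10, limma adjusted p = 0.0427), close to the threshold. SMC4 was called in 13 of 27 other settings of the fit, with changes from -0.45 to -0.32 and limma adjusted p from 0.0201 to 0.207, and it was not called with the mean of the small nucleolar RNAs as a covariate. SMC2, its partner (probe set 8156982), stood at 9.77 and 9.86 with sh_37 and at 10.08 and 9.77 with sh_38, against 10.38 and 10.25 with scrambled and 10.10 and 10.34 with luciferase. The change was -0.40 (SE 0.11, limma adjusted p = 0.0734), so SMC2 did not pass although its estimate was nearly that of SMC4. The remaining gene of condensin II, NCAPH2, its kleisin, is not in the list of 10 and stood at -0.09 (SE 0.09, limma adjusted p = 0.642).

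None of the 3 cohesin genes passed in the main fit, and SMC3 and RAD21 passed in none of 27 other settings. SMC1A (probe set 8172876) stood at 9.17 and 9.07 with sh_37 and at 9.41 and 9.24 with sh_38, against 9.61 and 9.62 with scrambled and 9.59 and 9.63 with luciferase. Its controls lay very close together (SD 0.019, n = 4), and all 4 knockdown arrays were below them. The change was -0.39 (SE 0.11, limma adjusted p = 0.0764). SMC1A was called in 3 of 27 other settings of the fit, those without sh_38, without sh_83 and without sh_84. SMC3 (probe set 7930422), the other ATPase of the ring, stood at 10.31 and 10.24 with sh_37 and at 10.39 and 10.15 with sh_38, against 10.68 and 10.54 with scrambled and 10.44 and 10.74 with luciferase. Its change was -0.33 (SE 0.11, limma adjusted p = 0.141). RAD21, the kleisin that separase cuts at anaphase (probe set 8152477), stood at 10.11 and 10.15 with sh_37 and at 10.32 and 10.16 with sh_38, against 10.38 and 10.39 with scrambled and 10.27 and 10.60 with luciferase. One sh_38 array lay above the lowest control, and the change of -0.23 had a 95% interval from -0.45 to 0.00. STAG1 and STAG2, alternative cohesin subunits outside the list, stood at -0.54 (SE 0.15, limma adjusted p = 0.0601) and -0.21 (SE 0.10, limma adjusted p = 0.32). Whether condensin changed more than cohesin was not tested, since the genes share the arrays and were listed with earlier results known.

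**Figure D1:**
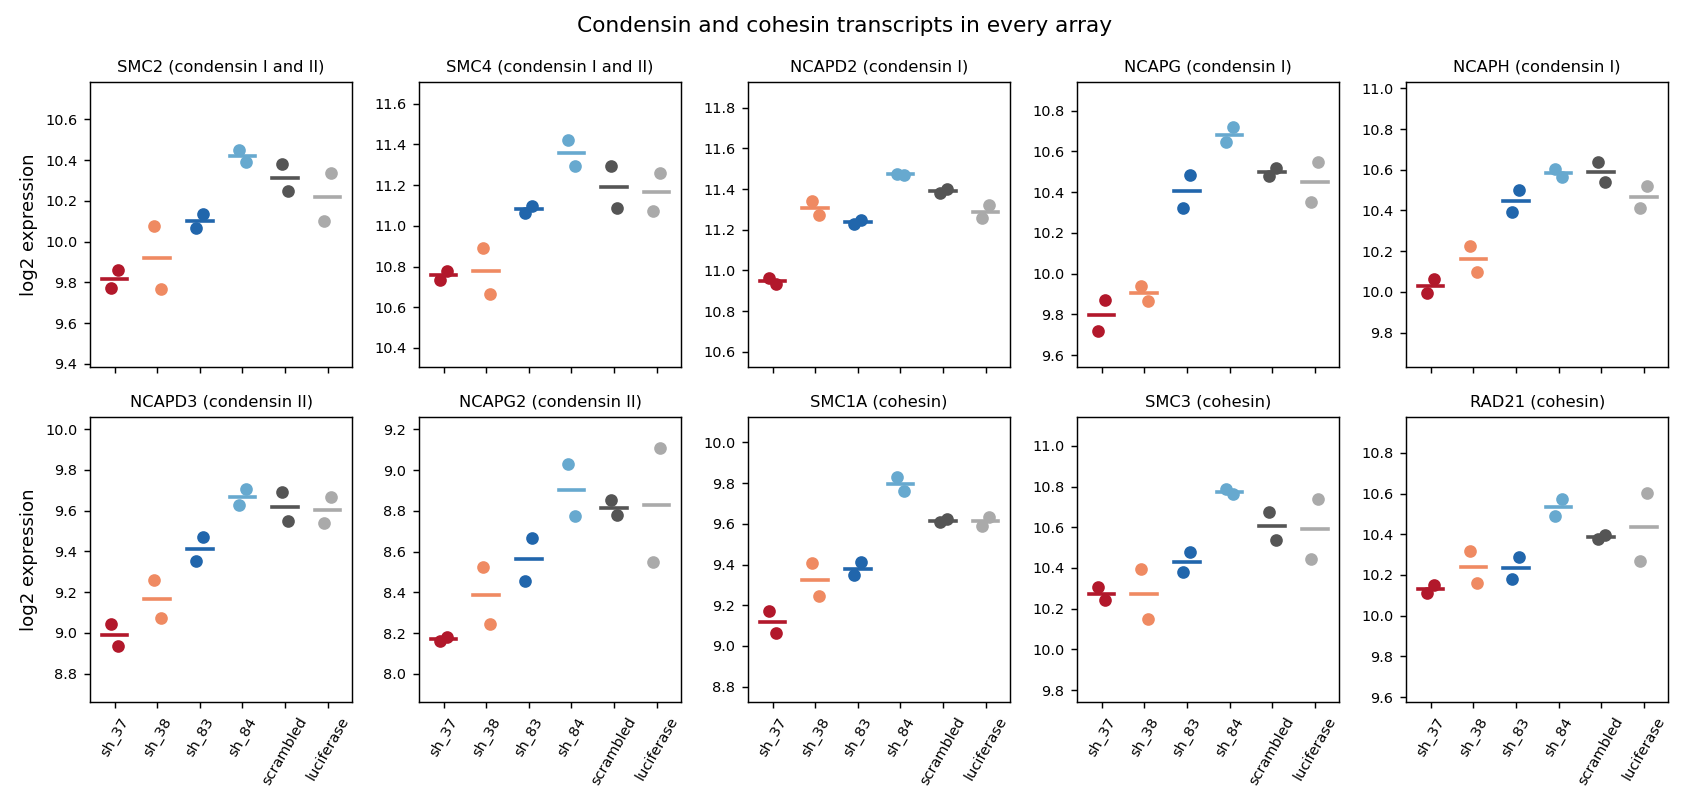
Log2 expression of each of the 10 genes (vertical axis, same span in every panel) in the 2 arrays (points) of each hairpin (horizontal axis), with the mean of the pair as a bar. The sh_37 mean is the lowest in 9 genes and the sh_84 mean the highest in 9.

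The calls depended on the control arrays. Without replicate 1 of scrambled, NCAPG alone of the 10 was called, where 66 of all genes were called in either direction. Without luciferase none of the 10 was called, nor without scrambled, where 14 and 43 of all genes were called. With all controls 450 genes were called lower and 159 higher.

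Promoter sequences of RefSeq (GRCh38.p14, 250 bases before to 50 after a start) were read for 9 of the 10 genes, with 13 windows in all since some genes have several starts. They were searched on both strands for the CHR element, which binds the MuvB complexes that time late cell cycle genes (TTTGAA or TTCGAA), for E2F sites (TTTCCCGC, TTTCGCGC, TTTGCCGC or TTTGGCGC) and for the CCAAT box of NF-Y (CCAAT). The CHR letters stood in 7 of the 13 windows, beside 16.4% of all 35116 windows. They stood in 6 of the 7 condensin genes, all but NCAPH, and in SMC3, beside 19.5% of all genes with windows. No window was read for RAD21. E2F letters stood in 2 windows (3.31% of all windows), of NCAPD3 and SMC1A. CCAAT stood in 3 (34.6% of all windows), of NCAPH, NCAPD3 and NCAPD2. A match is a run of letters and not a measured binding site. The windows of the 4 genes that fell and of NCAPD2, which differed between the hairpins, are shown, 1 window a gene, on the strand of the gene, with the matches in capitals. Distances are those of the first base of a match, so the CHR letters of NCAPD3 run across the start. SMC4 and NCAPD3 each have a second window, not shown, that holds none of these letters.
NCAPG, chr4:17810729-17811028, plus strand, CHR letters 35 bases before the start: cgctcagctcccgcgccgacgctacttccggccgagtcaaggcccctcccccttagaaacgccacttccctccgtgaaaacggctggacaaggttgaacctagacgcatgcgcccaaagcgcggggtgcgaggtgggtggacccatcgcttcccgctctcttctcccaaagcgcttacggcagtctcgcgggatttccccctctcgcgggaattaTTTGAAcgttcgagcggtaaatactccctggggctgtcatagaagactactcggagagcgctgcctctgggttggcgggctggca
NCAPH, chr2:96335516-96335815, plus strand, CCAAT 112 bases before the start: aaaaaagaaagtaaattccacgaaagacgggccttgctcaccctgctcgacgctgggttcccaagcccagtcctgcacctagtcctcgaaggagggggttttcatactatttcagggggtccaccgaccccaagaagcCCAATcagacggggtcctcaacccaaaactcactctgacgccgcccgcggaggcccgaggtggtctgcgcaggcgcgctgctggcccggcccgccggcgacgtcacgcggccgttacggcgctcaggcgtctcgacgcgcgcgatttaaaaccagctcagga
SMC4 (1 of its 2 starts), chr3:160399400-160399699, plus strand, CHR letters 75 bases before the start: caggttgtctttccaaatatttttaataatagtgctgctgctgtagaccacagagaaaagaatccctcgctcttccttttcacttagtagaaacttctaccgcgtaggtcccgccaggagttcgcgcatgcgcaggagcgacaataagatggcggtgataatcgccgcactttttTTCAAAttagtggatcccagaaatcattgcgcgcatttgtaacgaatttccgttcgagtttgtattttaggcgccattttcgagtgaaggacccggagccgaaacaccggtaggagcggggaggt
NCAPD3 (1 of its 2 starts), chr11:134223918-134224217, minus strand, E2F letters, 2 CCAAT boxes and CHR letters, the last 3 bases before the start: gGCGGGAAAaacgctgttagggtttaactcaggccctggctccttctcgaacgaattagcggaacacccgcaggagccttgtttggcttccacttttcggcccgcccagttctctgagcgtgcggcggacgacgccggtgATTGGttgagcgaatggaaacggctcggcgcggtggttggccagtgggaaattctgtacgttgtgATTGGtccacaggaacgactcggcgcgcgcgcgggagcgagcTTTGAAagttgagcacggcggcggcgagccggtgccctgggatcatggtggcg
NCAPD2, chr12:6493852-6494151, plus strand, 4 CCAAT boxes and CHR letters, the last 145 bases before the start: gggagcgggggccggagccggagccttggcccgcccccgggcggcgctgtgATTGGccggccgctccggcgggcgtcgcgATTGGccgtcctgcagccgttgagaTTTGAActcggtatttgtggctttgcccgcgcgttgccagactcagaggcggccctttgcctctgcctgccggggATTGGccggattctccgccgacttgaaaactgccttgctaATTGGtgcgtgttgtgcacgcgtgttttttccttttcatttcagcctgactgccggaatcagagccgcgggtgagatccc

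Each H2AZ2 hairpin was then set against both control hairpins in a fit with the 6 hairpins as groups. With sh_37, 8 of the 10 genes fell, among them all 7 condensin genes, where 7.19% of all genes were called lower. The eighth was SMC1A (-0.50, SE 0.08, limma adjusted p = 0.00191). SMC3 (-0.32) and RAD21 (-0.28) did not pass. Without replicate 1 of sh_37 the count was 5, with SMC2, SMC4 and NCAPG2 lost, and without replicate 2 it was 4, with NCAPD2 lost too, where 922 and 940 of all genes were called in either direction. In such fits the remaining array of the hairpin is assumed to vary like the arrays of the others, which give the spread. All 10 genes had both sh_37 arrays below the controls, as had 17.2% of all genes. The largest falls with sh_37 were in NCAPG (-0.68), NCAPG2 (-0.65) and NCAPD3 (-0.62). With sh_38, 4 genes fell, NCAPG (-0.57), NCAPD3 (-0.45), SMC4 (-0.40) and NCAPH (-0.37), where 3.33% of all genes were called lower. In 8 genes both sh_38 arrays lay below the controls, as in 12.8% of all genes. With sh_38 no gene was called without replicate 2 of sh_38, in a fit that leaves 1 array of that hairpin and called 148 of all genes. The count was 1 without replicate 2 of luciferase (478 of all genes) and 2 without replicate 1 of scrambled (576 of all genes). With the mean of the small nucleolar RNAs as a covariate, NCAPG alone was called with sh_38, where 678 of all genes were called.

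The difference between the H2AZ2 hairpins was tested directly. NCAPD2 was lower with sh_37 than with sh_38, with a difference of -0.36 between the hairpin means (SE 0.08, limma adjusted p = 0.0223), where 2.2% of all genes were called lower. It was -0.39 with sh_37 and -0.03 with sh_38 (95% interval -0.18 to 0.12) against the controls. No other gene of the list passed. The interval of the difference was -0.33 to 0.12 for NCAPG and -0.27 to 0.23 for SMC4, so hairpin differences of that size remain possible. H2AZ2 itself was lower with sh_37 than with sh_38 by -0.50 (SE 0.09, limma adjusted p = 0.00763). Without any 1 of the 4 arrays of these hairpins the NCAPD2 difference kept its size, between -0.39 and -0.32, but did not pass (limma adjusted p between 0.073 and 0.152). Each of these fits sets 1 array against 2, with the spread taken from the other hairpins.

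**Figure D2:**
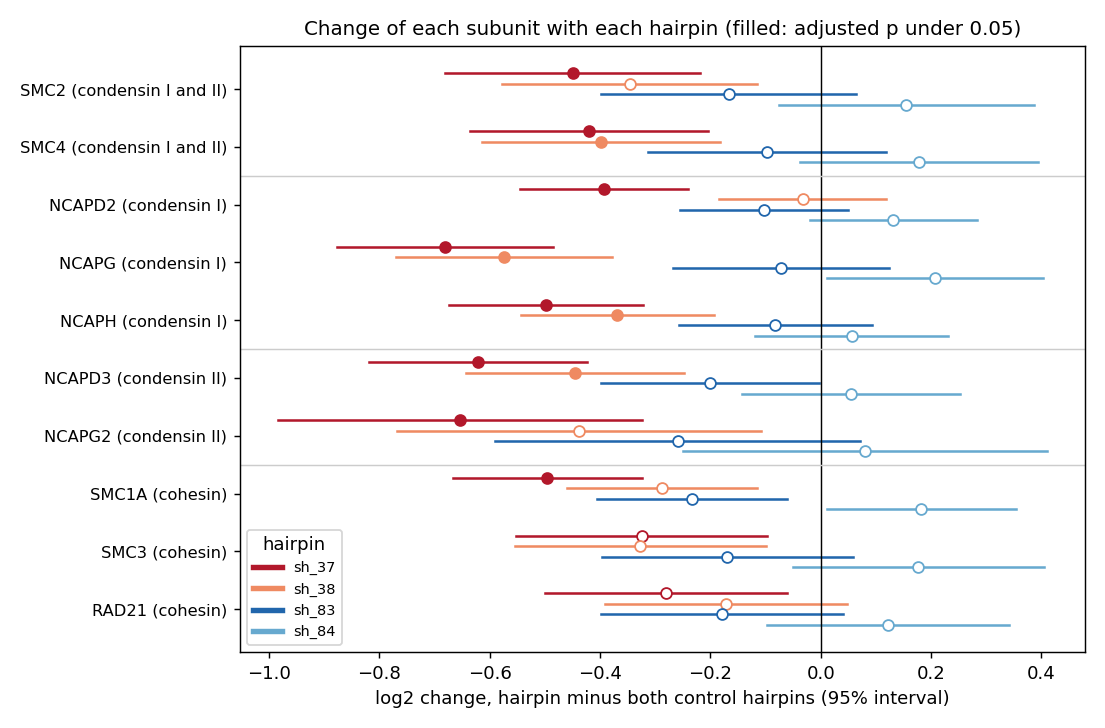
Log2 change of each gene (rows) with each H2AZ2 or H2AZ1 hairpin against the 4 control arrays (horizontal axis), with 95% intervals from the fit by hairpin before adjustment as lines. Filled points passed at an adjusted p under 0.05: 8 with sh_37, 4 with sh_38 and none with sh_83 or sh_84.

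For H2AZ1 the same comparison gave a split between the hairpins. Over its 4 arrays none of the 10 genes passed, and the changes lay between -0.09 and 0.07 with a median of -0.01. The share of all genes called lower was 0% (limma, with 636 genes at an unadjusted p under 0.05 in either direction and none of the 10 among them). In each of the 10 genes the arrays with H2AZ1 hairpins overlapped the control arrays. The share of all genes with such an overlap was not counted. With sh_83, the hairpin that lowered H2AZ1, all 10 estimates were negative and none passed (0.489% of all genes were called lower). They were lowest for NCAPG2 (-0.26, SE 0.15), SMC1A (-0.23, SE 0.08, limma adjusted p = 0.288) and NCAPD3 (-0.20, SE 0.09). The 3 cohesin genes had a median of -0.18 and the 7 condensin genes of -0.10. NCAPD2, NCAPD3 and SMC1A had both sh_83 arrays below the controls, 3 of 10 genes beside 10.9% of all genes. With the arrays labelled sh_84, all 10 estimates were positive, from 0.06 in NCAPD3 to 0.21 in NCAPG, and none passed (0.0109% of all genes were called higher). In 5 genes both arrays lay above the controls, as in 4.76% of all genes. The mean over the 4 arrays thus joined values of opposite sign.

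The hairpins sh_83 and sh_84 were compared directly, a comparison added after the values were seen. SMC1A stood at 9.35 and 9.41 with sh_83, against 9.83 and 9.76 with sh_84, and the difference was -0.42 (SE 0.09, limma adjusted p = 0.0584). That was the lowest adjusted p of the 10, and none passed, where 0.472% of all genes were called lower. In all 10 genes both sh_83 arrays were below both sh_84 arrays, as in 22.7% of all genes. The estimates ran from -0.42 in SMC1A to -0.14 in NCAPH. SMC1A was called when the arrays were quantile normalised again (317 of all genes) and when a trend of the variance was fitted (458). It was also called when the dimmest genes were left out (315) and when the replicate number was a block (343). In the main fit 87 genes were called lower and 132 higher.

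H2AZ2 hairpins were also set against H2AZ1 hairpins. In 2 of the 4 arrays on the H2AZ1 side, those labelled sh_84, H2AZ1 itself was not called lower. The 4 genes called against the controls were lower here too: NCAPG (-0.69, SE 0.10, limma adjusted p = 0.00351), NCAPD3 (-0.46), SMC4 (-0.45) and NCAPH (-0.42). Of all genes, 2.28% were called lower. These 4 also had all arrays with H2AZ2 hairpins below all with H2AZ1 hairpins, which held for 6.84% of all genes. No cohesin gene passed, with a median of -0.33, which was -0.16 without hairpin sh_84. Without sh_84 NCAPG alone was called, where 93 of all genes were called in either direction. Without replicate 1 or 2 of sh_84 NCAPG and NCAPH were called (299 and 306 of all genes), as also without replicate 1 of scrambled (272). With all arrays 419 genes were called lower and 383 higher.

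**Figure D3:**
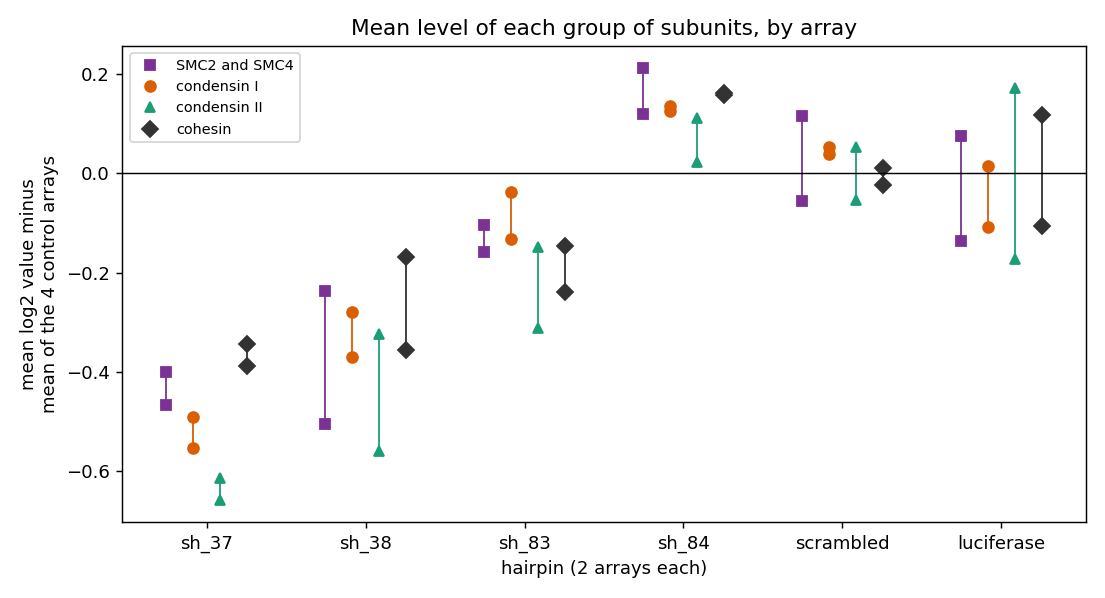
Mean log2 value of each group of subunits minus its mean over the 4 control arrays (vertical axis), in both arrays (joined points) of each hairpin (horizontal axis). Condensin II here is NCAPD3 and NCAPG2, without NCAPH2. With sh_37 the mean of these condensin II genes is lowest, at -0.61 and -0.66. The cohesin mean is highest with sh_37, at -0.34 and -0.39. The luciferase arrays lie on both sides of 0.

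Across hairpins the order of the means was much the same from gene to gene. The sh_37 mean was the lowest in 9 genes and the sh_38 mean in SMC3. The sh_84 mean was the highest in 9 genes and the scrambled mean in NCAPH. Between scrambled and luciferase no difference passed in any of the 10 (limma, 0% of all genes called, 1384 of them at an unadjusted p under 0.05, none of the 10 among these). Averaged over the 3 cohesin genes, sh_38 replicate 1 stood at -0.17 and replicate 2 at -0.36 relative to the controls, while luciferase replicate 1 stood at -0.11 and replicate 2 at 0.12. Replicates of a hairpin differed by as much as some hairpins did.

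Over the 12 arrays the levels of the 10 genes moved together, with pairwise Pearson r from 0.73 to 0.97 and a median of 0.91. After removal of the hairpin means the median was 0.72, over arrays that share the same hybridisations and scaling. The lowest r was that of NCAPD2 with SMC3. The mean of the condensin genes and that of the cohesin genes had r = 0.96. The genes outside the list most like the condensin mean over the 12 arrays were ATAD2, the mitotic kinesin KIF11, FAM111B, the replication checkpoint protein TOPBP1 and FBXO5, an inhibitor of the anaphase-promoting complex, all with r = 0.99. Those most like the cohesin mean were PRIM1, the small primase subunit, SCML1, the kinase CDK2 and SLC25A40, with r = 0.98, and SLC25A15, a mitochondrial ornithine carrier, with r = 0.97. All 10 had Spearman rho between 0.92 and 0.99. These genes were picked as the highest among all, so their r describes these arrays only.

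Genes that act with the complexes were read from lists and set against the same control arrays. Of 10 measured partners of condensin in mitosis, 4 fell with H2AZ2 hairpins and none rose, with a median of -0.41, where 2.44% of all genes were called lower: CDK1, the kinase that activates condensin (-0.72), TOP2A, which untangles the chromatids (-0.54), the chromosome motor KIF4A (-0.51) and CDCA8 of the chromosomal passenger complex (-0.44). Of 14 regulators of cohesin 4 fell and none rose, beside the same 2.44% of all genes, with a median of -0.27. They were SGO1, which shields centromeric cohesin (-0.56), CDCA5, which stabilises it on replicated DNA (-0.52), the protease separase ESPL1 (-0.45) and CTCF, which stops cohesin loops (-0.32). The other 10 did not pass. Of 8 genes of the related SMC5/6 complex 1 fell, NSMCE4A (-0.53), again beside 2.44% of all genes, with a median of -0.21. None of 4 genes of meiotic cohesin passed, with a median of 0.11, and RAD21L1 and REC8 both stood at 0.14. The median over all genes was 0.03.

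**Figure D4:**
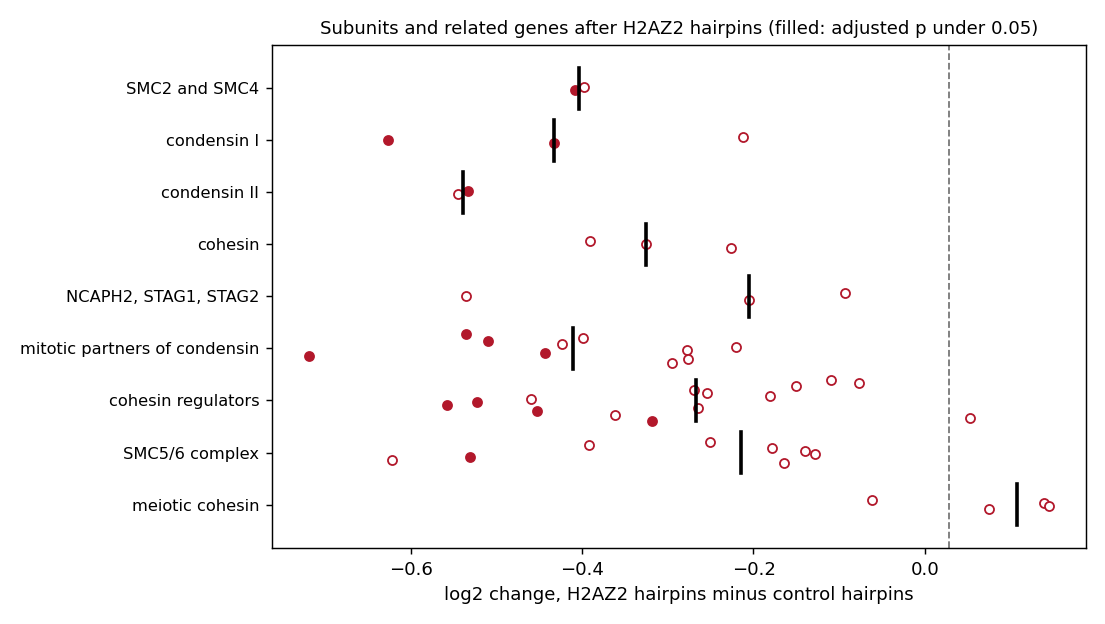
Log2 change with H2AZ2 hairpins against control hairpins (horizontal axis) for each gene (points) of the groups in the rows, with the group median as a bar and the median of all genes, 0.03, as a dashed line. Filled points passed at an adjusted p under 0.05, 4 of the 10 subunits and none of the 3 cohesin genes among them.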

How the data were processed

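RNA from SK-mel147 cells was hybridised to 12 Affymetrix Human Gene 1.0 ST arrays. The deposited values are log2 expression values from RMA, per the submitters' processing notes. They were used as deposited, with no further normalization. Of 33297 probe sets, 19460 carried 1 gene symbol in the platform annotation, 1754 several and 12083 none, and the brightest single-symbol probe set stood for each of 18417 genes. limma 3.58.1 in R 4.3.3 fitted the 3 targets, in which arrays of 1 hairpin formed a random block (consensus correlation 0.157), and separately the 6 hairpins as groups. Benjamini-Hochberg adjustment covered the 18417 genes, and an adjusted p under 0.05 counted as a call. The scripts were tested on simulated data. All comparisons with control share the same 4 control arrays. Named genes were the 10 subunits, H2AZ1, H2AZ2, NCAPH2, STAG1 and STAG2, up to 4 called genes per related list by size of change (the 2 largest where none was called), and the 5 genes most correlated with each complex mean. The 10 genes and the lists were chosen with earlier results of these data known. Other settings of the fit, the normalization and the control group were tried, as were fits without each array or hairpin, and the comparison of sh_83 with sh_84 was added after seeing the data. Replicate number was not in the main fits, and a fit with it as a block was among the other settings. Of 15 pairs of hairpins, 9 had differences between replicates correlated over 0.1, with a range from -0.47 to 0.68. Among sh_37, sh_38, sh_84 and scrambled these correlations lay between 0.38 and 0.68, and luciferase was negatively correlated with each of them. Whether replicate numbers mark a shared batch was not tested. The number of arrays limits the precision.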

Additional observations from a re-analysis of the deposited data

Results flagged for a closer look

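The test of H2AZ2 against H2AZ1 hairpins found different levels for 4 condensin genes. The log2 differences were -0.69 in NCAPG, -0.46 in NCAPD3, -0.45 in SMC4 and -0.42 in NCAPH. Without sh_37, or without sh_84, NCAPG alone was called, where 446 and 93 of all genes were called in either direction. Without replicate 1 or 2 of sh_84 NCAPG and NCAPH were called (299 and 306 of all genes). With all arrays 419 genes were called lower and 383 higher. H2AZ1 itself was not called lower in the arrays labelled sh_84. The test of sh_37 against sh_38, both against H2AZ2, found a lower level of NCAPD2 with sh_37, by -0.36. By a Dixon ratio, the gap to the nearest array over the range of the group, no array was flagged in the 30 groups of 4 arrays checked. Each group joins both hairpins of a target. Where these differ, the range is wide and the check could hardly flag a single array.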

How the results depend on the processing

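With H2AZ2 hairpins against control, 4 of the 10 genes were called. The count was 6 with no hairpin block (957 genes called in all, against 450 lower and 159 higher) and 3 with the mean of the small nucleolar RNAs as a covariate (343 in all). It was 3 with the replicate block (445 in all), which lost SMC4, and the replicate block moved no other count of the 10 genes except that of sh_83 against sh_84. Without hairpin luciferase the count was 0 (14 in all), without scrambled 0 (43), without sh_37 it was 1 (447), without sh_38 it was 8 (1681) and without sh_83 it was 7 (663). Without sh_84 it was 6, with NCAPG2 and SMC1A added to the 4. The number called among all genes is not given for that fit, so this rise is not read as particular to the 10. Leaving out 1 array at a time gave 1 to 6, with 1 (66 in all) without replicate 1 of scrambled. Against H2AZ1 the count of 4 (419 genes lower and 383 higher in all) became 1 without sh_37 (446 in all) or sh_84 (93) and 7 without sh_38 (1795) or sh_83 (808), and 2 to 6 without single arrays. With sh_37 it was 4 to 10 without single arrays, 5 without replicate 1 of sh_37 and 4 without replicate 2. With sh_38 the count of 4 (613 genes lower and 235 higher in all) was 1 to 5 without single control arrays. It was 7 with a variance trend (1263 in all), 1 with the small nucleolar RNA covariate (678) and 2 with luciferase alone as control (628). For sh_37 against sh_38 it was 0 to 1. For sh_83 against sh_84 (87 genes lower and 132 higher in all) it was 1 instead of 0 in 4 settings. They were the replicate block (343 in all), no dimmest 25% of genes (315), quantile normalization repeated (317) and a variance trend (458). Of the median changes, those of H2AZ1 against control became 0.17 for SMC2 and SMC4, 0.13 for condensin I, 0.068 for condensin II and 0.18 for cohesin without sh_83, and -0.13, -0.082, -0.23 and -0.18 without sh_84, against 0.018, 0.015, -0.081 and -0.025 with both, so each turned sign under 1 of these settings. Those of H2AZ2 against H2AZ1 became -0.57 for SMC2 and SMC4, -0.61 for condensin II and -0.50 for cohesin without sh_83, and -0.27, -0.31 and -0.16 without sh_84. Among the changes of single genes with single hairpins, signs turned for 5 pairs of gene and hairpin, none called: NCAPG2 with sh_84 (-0.060 without luciferase replicate 1 and -0.048 without sh_84 replicate 1, in a range from -0.060 to 0.22 without single arrays), NCAPG with sh_83 (0.0085 without sh_83 replicate 1, in a range from -0.15 to 0.0085), NCAPD2 with sh_38 (0.0026 without sh_38 replicate 2, in a range from -0.068 to 0.0026, 0.0036 with quantile normalization repeated, 0.018 with luciferase alone), SMC4 with sh_83 (0.0011 with the small nucleolar RNA covariate) and NCAPH with sh_84 (-0.0053 with scrambled alone). Of the single-gene values under alternatives, 1515 kept their direction and side of the threshold, 46 came to pass it, 71 ceased to pass it and 8 turned sign. Single-gene values of H2AZ1 against control and of scrambled against luciferase were not among these. For sh_37 against sh_38 only NCAPD2 was counted. The cause of these shifts was not tested.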
